A study of Mus musculus with 4 samples.

Results

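The clustered protocadherins were examined in RNA-seq of the mouse prefrontal cortex (PFC) after knockdown of Ash1l. Members were taken by symbol, as every gene named Pcdha, Pcdhb, Pcdhga, Pcdhgb or Pcdhgc with a number and the alpha C-type genes Pcdhac1 and Pcdhac2, which gave 59 of the 23420 symbols counted. They were 13 alpha genes, 22 beta genes, 19 gamma genes of the A and B types, and 5 C-type genes, of which Pcdhac1 and Pcdhac2 close the alpha cluster and Pcdhgc3, Pcdhgc4 and Pcdhgc5 close the gamma cluster.

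The study compared C57BL6/J mice whose PFC had received an AAV9 carrying an shRNA against Ash1l (Ash1L shRNA, 2 samples) with mice that had received a control AAV9 (control, 2 samples). Ash1l encodes a histone methyltransferase that acts on lysine residues of histone H3. The virus expressed GFP, the shRNA was driven by the U6 promoter, and the labels name the control virus GFP-AAV9 while the study's methods name a scrambled shRNA. The series description gives 3 shRNA and 2 control mice aged 6 to 8 weeks. The methods give a younger age for the viral injection and mice of both sexes. They also state that tissue of several mice was pooled for each sample, so the animals and sexes behind a sample are not settled. All animals shared the C57BL6/J background and a viral injection, and RNA came from bulk tissue, which also holds cells that the virus did not reach.

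Clustered protocadherins are cell surface adhesion proteins of the cadherin superfamily that bind their own kind between neighbouring cells. In the alpha and gamma clusters each variable exon has its own promoter and encodes the extracellular part, and it is spliced to constant exons shared by the whole cluster, whereas each beta gene is a single exon. Single neurons express varying subsets of alpha, beta and gamma A and B genes, chosen with the help of CTCF, cohesin and DNA methylation at the promoters, while the C-type genes are expressed more broadly, and the combination gives a neuron an identity used in self-avoidance of its dendrites and axons.

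The libraries held 14251190 and 35764874 counts in controls 1 and 2, against 27479339 and 20106708 in the libraries of Ash1L shRNA samples 1 and 2. The members took 9865, 26325, 18998 and 13092 of these counts. Ash1l itself had 245 and 290 CPM (counts scaled by library size and TMM) in the controls and 216 and 138 CPM in the Ash1L shRNA samples. Both Ash1L shRNA samples were below both controls, and sample 2 was the lower of them. The log2 fold change was -0.60 ± 0.22 (SE), the unadjusted P was 0.0362, and the Benjamini-Hochberg adjusted p over 16232 genes was 0.275 by the quasi-likelihood test of edgeR. It ran from -0.97 without Ash1L shRNA sample 1 to -0.31 without sample 2, and passed the unadjusted threshold only in the first of these fits and with all samples. Fold changes below are Ash1L shRNA against control on the log2 scale, and DOWN and UP mark an unadjusted P under 0.05 with at least a 1.2-fold change.

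All 59 members lie on chromosome 18 of the mouse genome (mm10), in the order alpha, beta, gamma. In the GENCODE annotation, 53.3 to 54.9% of the exonic bases of each alpha gene other than Pcdha4-g were shared with other members, 41.7 to 45.5% for gamma A and B genes and 42.2 to 52.8% for the C-type genes. Beta genes shared no exon base, apart from an overlap of the GENCODE models of Pcdhb21 and Pcdhb22. A read within a shared exon cannot be placed on 1 gene, and whether the counting dropped such reads is not given in the sources used here. Reads that fit several near-identical variable exons are uncertain in the same way. The levels below are therefore divided by the kilobases of exon that a gene shares with no other member, or for beta genes by the length of the gene.

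Of the 59 members, 56 had enough counts to be tested. Pcdhb1, the first beta gene, was close to silent with 2 and 5 counts in the controls and 4 and 2 in the Ash1L shRNA samples. Pcdha4 had 0 and 6 counts in the controls and 5 and 0 in the Ash1L shRNA samples. Pcdha4-g had 0 counts in every sample. The models of Pcdha4 and Pcdha4-g cover each other, as 2410 of the 2503 own bases of Pcdha4 (96.3%) lie inside exons of Pcdha4-g. Their low counts are therefore no measure of the expression of either gene.

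The most abundant members per length were 3 of the 5 C-type genes. Pcdhgc5 had the highest level, 42.3 CPM per kb in the controls and 41.9 in the Ash1L shRNA samples (means, n = 2 each). It was followed by Pcdhac2 with 18.4 in the controls and 15.4 in the Ash1L shRNA samples and by Pcdhgc3 with 18.1 and 16.1. The levels of Pcdhac2 and Pcdhgc3 overlapped each other across the samples, so the order of these genes is not settled. Pcdhgc4 had 5.79 in the controls and 5.72 in the Ash1L shRNA samples. The remaining C-type gene, Pcdhac1, had 2.56 and 2.52, within the range of the alpha genes.

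Among the variable genes the levels per length formed a narrower range. The tested alpha genes had a median of 2.45 CPM per kb in the controls and 2.16 in the Ash1L shRNA samples, with Pcdha12 highest at 5.44 and 5.48. The beta genes had a median of 2.48 and 2.02, with Pcdhb17 highest at 7.37 and 5.47. Gamma A and B genes had a median of 4.22 and 4.41, with Pcdhga11 highest at 8.57 and 8.49. Each of these leading genes was the same in control and Ash1L shRNA samples.

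**Figure D1:**
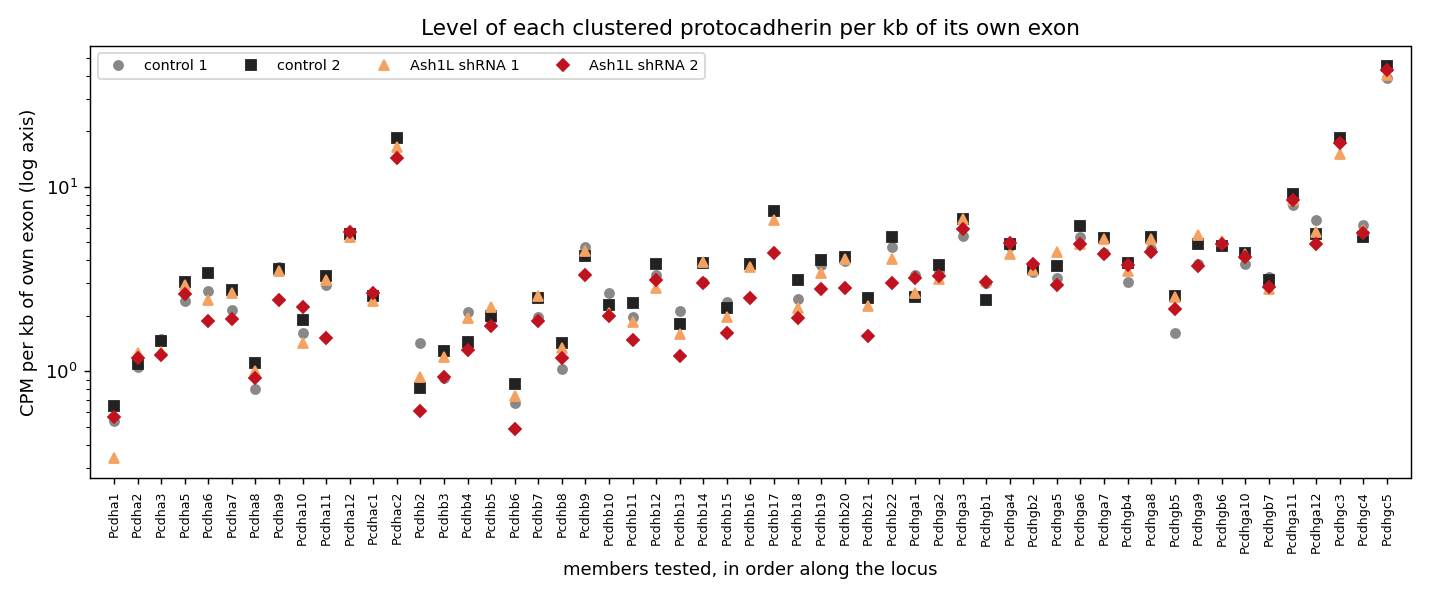
Level of each tested member with an annotated own exon, in CPM per kb of own exon on a log axis, in order along the locus, with 1 point for each of the 4 samples. Pcdhgc5, Pcdhac2 and Pcdhgc3 stand above all other members in every sample, and many points of Ash1L shRNA sample 2 (red diamonds) lie lowest from Pcdhb10 to Pcdhb22.

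Comparing the groups, no member differed at an adjusted p under 0.05 by edgeR's quasi-likelihood test (adjusted p from 0.294 to 0.994), a limit that 0.00616% of all genes passed as lower and 0% as higher. At an unadjusted P under 0.05 the count was 1 member, the DOWN gene Pcdhb22, and no member was UP. DOWN calls were made for 8.28% of all genes tested and UP calls for 8.61%, so that 1 DOWN and 0 UP of 56 was below the background of these libraries. Without Ash1L shRNA sample 1 the count of DOWN members was 12, where 16.5% of all genes were DOWN, and without any other sample it was 0. The fold change was below 0 for 39 members and above 0 for 17, with a median of -0.08, where the median over all 16232 genes was -0.00 and 50.3% of all genes were below 0. Both Ash1L shRNA samples lay below both controls for 19 of 56 members (33.9%) and above both for 3 (5.36%), beside 26.8% and 26.5% of all genes tested.

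The fits bounded large changes for most members. The 95% interval of the fold change lay within 2-fold either way for 48 of 56 tested members, among them all 19 gamma A and B genes and all 5 C-type genes, and within 1.5-fold for 16. The standard errors ran from 0.12 to 0.45 on the log2 scale, the largest in genes with few counts. The labels call the samples biological duplicates. With 2 samples a group, the P values rest on the spread between these samples, moderated for each gene by that of all genes tested.

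**Figure D2:**
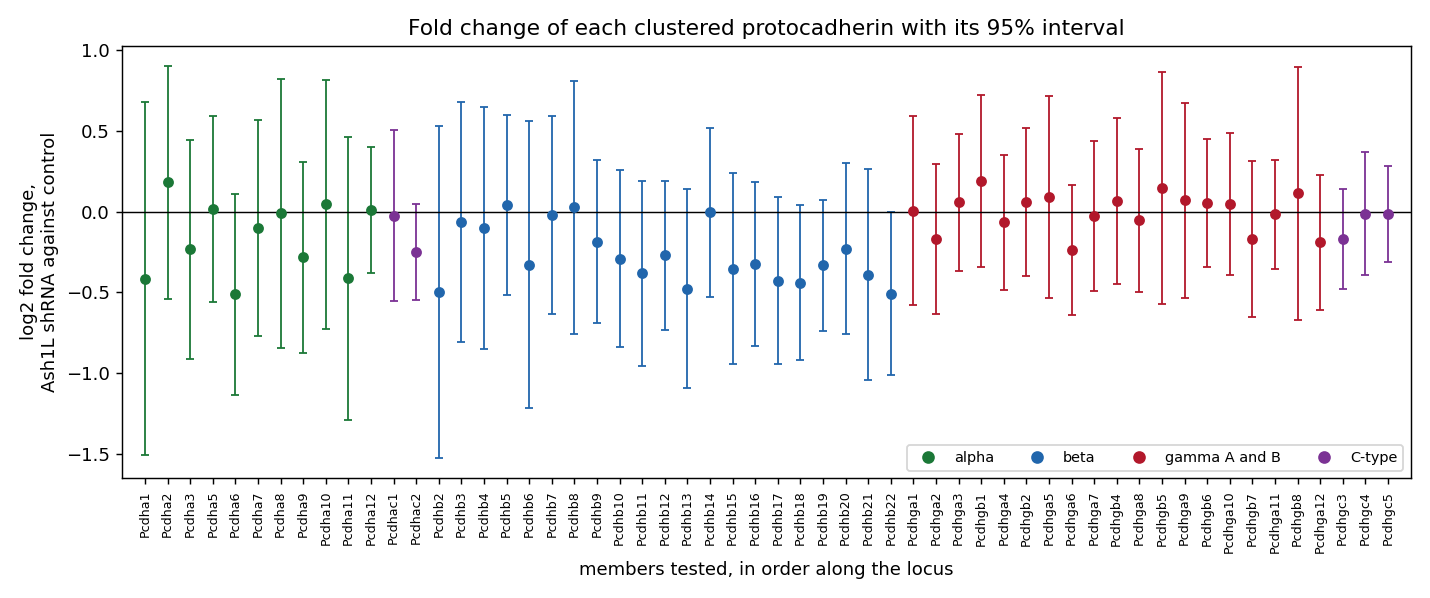
Log2 fold change of each of the 56 tested members, Ash1L shRNA against control, in order along the locus, with its 95% interval from edgeR. The beta genes from Pcdhb10 on lie mostly between -0.51 and -0.23, while gamma A and B genes scatter around 0, and Pcdhb22 has an interval that ends just below 0.

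The beta genes were mostly on the lower side. Of the 21 tested, 19 had a fold change below 0, the median was -0.32, and the range was -0.51 (Pcdhb22) to 0.04 (Pcdhb5). In 11 of 21 (52.4%) both Ash1L shRNA samples were below both controls, and in none were both above, beside 26.8% and 26.5% of all genes tested. In bulk tissue, fewer cells of a type and less RNA per cell cannot be told apart, which holds for every value below.

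Pcdhb22, the last gene of the beta cluster, had 203 and 577 counts in the controls and 342 and 191 in the Ash1L shRNA samples. Scaled, these were 14.4 and 16.5 CPM in the controls and 12.5 and 9.22 CPM in the Ash1L shRNA samples, without overlap between the groups. The mean fell from 15.4 ± 1.46 to 10.9 ± 2.31 CPM (SD, n = 2 each), with a log2 fold change of -0.51 ± 0.21 (SE), an unadjusted P of 0.0488 and an adjusted p of 0.294 in edgeR's quasi-likelihood test. The DOWN call was lost without control 1, without control 2 and without Ash1L shRNA sample 2, where the log2 fold change was -0.59, -0.41 and -0.31. With all samples it was also lost under upper-quartile scaling, scaling by library size only, the filter of 10 counts, DESeq2, the likelihood ratio test and the replicate block, while the log2 fold change stayed between -0.52 and -0.47.

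Pcdhb17, the most abundant beta gene per length and by CPM, had 24.0 and 24.2 CPM in the controls and 21.5 and 14.2 CPM in the Ash1L shRNA samples. The controls were nearly equal, and the Ash1L shRNA samples lay below them and apart from each other. Its log2 fold change was -0.43, with a 95% interval from -0.94 to 0.09 that included 0. Pcdhb16 had 20.5 and 20.1 CPM in the controls and 19.2 and 13.1 CPM in the Ash1L shRNA samples, a log2 difference of -0.32 with an interval from -0.83 to 0.18. Pcdhb19 had 17.8 and 19.0 CPM in the controls and 16.0 and 13.2 CPM in the Ash1L shRNA samples, a log2 difference of -0.33 with an interval from -0.74 to 0.07. In all 3 genes Ash1L shRNA sample 2 was the lowest of the 4 samples.

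Pcdhb5 was the beta gene with the highest fold change. It had 6.66 and 7.04 CPM in the controls and 7.89 and 6.22 CPM in the Ash1L shRNA samples. The controls fell between the Ash1L shRNA samples, and the log2 difference of 0.04 had an interval from -0.52 to 0.60.

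The 11 beta genes without overlap were Pcdhb10 to Pcdhb13, Pcdhb15 to Pcdhb19, Pcdhb21 and Pcdhb22, named here after their values were seen. They all came from the gamma-facing part of the cluster. Over the 13 genes from Pcdhb10 to Pcdhb22 the median log2 fold change was -0.35, and the summed level was 159 and 169 CPM in the controls and 146 and 113 CPM in the Ash1L shRNA samples. Over the 8 tested genes from Pcdhb2 to Pcdhb9 the median was -0.08, none was without overlap, and the summed level was 48.0 and 47.4 CPM in the controls and 50.6 and 37.5 CPM in the Ash1L shRNA samples. The place of this division was also chosen after the values were seen, and the difference between the stretches has no test.

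The beta values were set mainly by Ash1L shRNA sample 2. Against the mean of the controls, the median deviation of the 21 genes was -0.15 in sample 1 and -0.51 in sample 2, and 20 of 21 genes were lower in sample 2 than in sample 1. Without sample 2 the median log2 fold change was -0.14 with 13 of 21 genes below 0, and without sample 1 it was -0.51 with 21 of 21 below 0. The level of Ash1l was also lower in sample 2 than in sample 1. Of all 16232 genes tested, 8459 were lower in sample 2 than in sample 1, whatever their levels in the controls. A relation of the beta genes to the level of Ash1l was not tested.

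**Figure D3:**
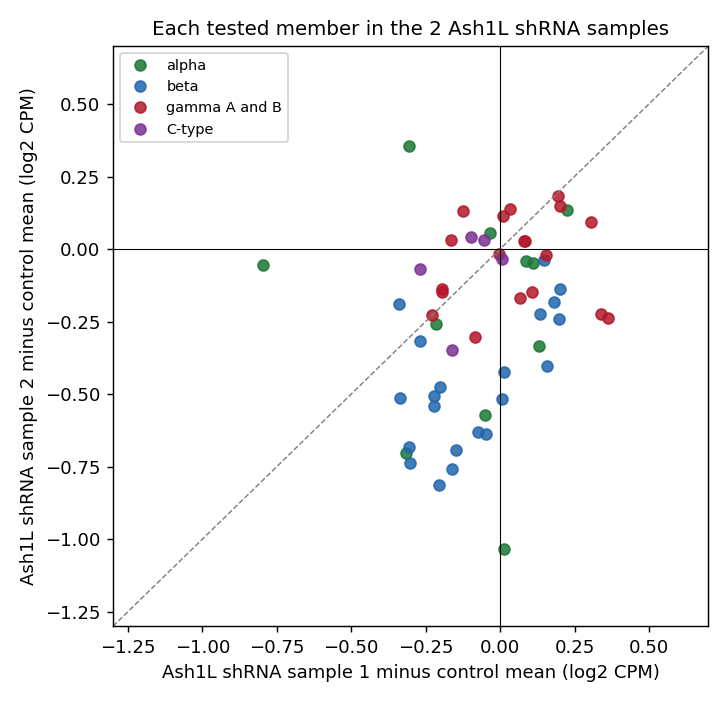
Each of the 56 tested members by its deviation from the mean of the controls in log2 CPM, Ash1L shRNA sample 1 on the horizontal axis and sample 2 on the vertical axis, with a dashed line where both are equal. All but 1 of the 21 beta genes (blue) lie below the dashed line, with medians of -0.15 in sample 1 and -0.51 in sample 2, and gamma A and B genes (red) lie on both sides of 0.

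Summed over the 22 genes, the beta cluster had 207 and 217 CPM in the controls and 197 and 151 CPM in the Ash1L shRNA samples. The groups did not overlap, and the difference of the mean log2 values was -0.30. As a share of all member counts, beta genes took 29.7% (95% Wilson interval 28.8 to 30.6) and 28.8% (28.3 to 29.4) in the controls. They took 28.4% (27.7 to 29.0) and 23.9% (23.1 to 24.6) in Ash1L shRNA samples 1 and 2. These intervals cover counting error only. That of sample 1 overlapped those of both controls, and that of sample 2 lay below both.

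The alpha genes were spread more widely, with fewer counts. Of the 11 tested, 7 had a fold change below 0, with a median of -0.10 and a range from -0.51 (Pcdha6) to 0.18 (Pcdha2). In 3 genes both Ash1L shRNA samples were below both controls (Pcdha3, Pcdha6 and Pcdha9), and in 1 they were above (Pcdha2). These were 27.3% and 9.09% of the 11, beside 26.8% and 26.5% of all genes tested. The summed level was 61.0 and 68.9 CPM in the controls and 62.6 and 54.6 CPM in the Ash1L shRNA samples, so the groups overlapped, and the log2 difference of -0.15 ran from -0.25 to -0.05 with a sample left out.

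Pcdha6 had 6.80 and 8.58 CPM in the controls and 6.13 and 4.68 CPM in the Ash1L shRNA samples. Sample 2 was again the lowest, and the log2 fold change of -0.51 ± 0.26 (SE) had an unadjusted P of 0.0917 and an adjusted p of 0.354 in edgeR's quasi-likelihood test. Pcdha9 had 9.14 and 8.84 CPM in the controls and 8.69 and 6.03 CPM in the Ash1L shRNA samples, a log2 difference of -0.28. Pcdha11 had 7.30 and 8.18 CPM in the controls and 7.81 and 3.76 CPM in the Ash1L shRNA samples, so that its log2 difference of -0.41 came from sample 2 alone.

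Pcdha12, the alpha gene with the highest level, had 13.2 and 13.7 CPM in the controls and 13.14 and 13.99 CPM in the Ash1L shRNA samples. Its log2 difference of 0.01 had an interval from -0.38 to 0.40. Pcdha2 had 2.62 and 2.74 CPM in the controls and 3.14 and 2.94 CPM in the Ash1L shRNA samples. The groups were without overlap, but the counts were low (37 to 96 per sample) and the interval of the log2 difference of 0.18 ran from -0.54 to 0.90.

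Gamma A and B genes had no common direction. Of the 19, 8 had a fold change below 0 and 11 above 0, with a median of 0.05 and a range from -0.24 (Pcdhga6) to 0.19 (Pcdhgb1). Groups were without overlap in 3 genes with lower Ash1L shRNA samples and in 2 with higher ones. These were 15.8% and 10.5% of the 19, beside 26.8% and 26.5% of all genes tested. The summed level was 202 and 221 CPM in the controls and 217 and 202 CPM in the Ash1L shRNA samples, with a log2 difference of -0.01 whose sign turned to 0.03 when scaled by library size only.

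Among the 12 gamma A genes the median log2 fold change was -0.02. Pcdhga11, the leading gamma A gene, had 21.1 and 24.1 CPM in the controls and 22.5 and 22.3 CPM in the Ash1L shRNA samples. Pcdhga12 had 19.6 and 16.5 CPM in the controls and 16.9 and 14.5 CPM in the Ash1L shRNA samples, a log2 difference of -0.19. Pcdhga3 had 14.1 and 17.4 CPM in the controls and 17.4 and 15.4 CPM in the Ash1L shRNA samples. In each of these 3 genes the groups overlapped.

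Pcdhga6 and Pcdhga5 marked the ends of the gamma A range. Pcdhga6 had 13.9 and 16.0 CPM in the controls and 12.7 in each of the Ash1L shRNA samples, without overlap, and a log2 difference of -0.24 with an interval from -0.64 to 0.17. Pcdhga5 had 8.15 and 9.41 CPM in the controls and 11.3 and 7.43 CPM in the Ash1L shRNA samples, which lay on both sides of the controls.

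Among the 7 gamma B genes the median was 0.07 and 6 had a fold change above 0, including the annotated pseudogene Pcdhgb8. Pcdhgb6, the leading gamma B gene by CPM, had 12.3 and 12.2 CPM in the controls and 12.96 and 12.50 CPM in the Ash1L shRNA samples. The samples were separated by little, and the log2 difference was 0.05. Pcdhgb1 had 7.79 and 6.30 CPM in the controls and 8.03 and 7.96 CPM in the Ash1L shRNA samples, a log2 difference of 0.19 with an interval from -0.34 to 0.72. Pcdhgb7 was the only gamma B gene with a negative value, at 8.36 and 8.10 CPM in the controls and 7.19 and 7.43 CPM in the Ash1L shRNA samples, a log2 difference of -0.17.

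Pcdhgb2 and Pcdhgb4 completed the gamma B genes with the highest counts. Pcdhgb2 had 8.78 and 9.07 CPM in the controls and 8.98 and 9.65 CPM in the Ash1L shRNA samples. Pcdhgb4 had 7.72 and 9.86 CPM in the controls and 8.95 and 9.60 CPM in the Ash1L shRNA samples. Both showed overlap, with log2 differences of 0.06 and 0.07.

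The 5 C-type genes all had fold changes below 0, by small amounts, with a median of -0.03 and a range from -0.25 to -0.01. In 2 of them (40.0%) both Ash1L shRNA samples were below both controls, beside 26.8% of all genes tested. Pcdhac2 had 55.5 and 55.7 CPM in the controls and 49.7 and 43.7 CPM in the Ash1L shRNA samples. The groups did not overlap, and the log2 fold change of -0.25 ± 0.12 (SE) had an unadjusted P of 0.0838 and an adjusted p of 0.344 in edgeR's quasi-likelihood test. Pcdhgc3, whose protein binds the Wnt pathway protein Axin1, had 45.6 and 47.3 CPM in the controls and 38.5 and 44.3 CPM in the Ash1L shRNA samples, also without overlap, with a log2 difference of -0.17 and an interval from -0.48 to 0.14.

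The other C-type genes overlapped between groups. Pcdhgc5 had 1449 and 4180 counts in the controls and 2917 and 2345 in the Ash1L shRNA samples, which was 103, 119, 107 and 113 CPM. Its log2 difference of -0.02 had an interval from -0.31 to 0.28. Pcdhgc4, a gene required for survival of neurons in the mouse, had 18.1 and 15.6 CPM in the controls and 16.9 and 16.4 CPM in the Ash1L shRNA samples. Pcdhac1 had 6.59 and 6.53 CPM in the controls and 6.13 and 6.76 CPM in the Ash1L shRNA samples.

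Summed, the C-type genes had 228 and 244 CPM in the controls and 218 and 224 CPM in the Ash1L shRNA samples, a log2 difference of -0.10. They took 32.7% and 32.5% of all member counts in the controls and 31.4% and 35.5% in Ash1L shRNA samples 1 and 2. The median of the 5 fold changes was -0.13 without control 2 and -0.11 without control 1, and it turned to 0.02 when scaled by library size only.

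The beta cluster was compared directly with gamma A and B genes within each library, which does not depend on the scaling between libraries. The ratio of beta to gamma A and B counts was 1.03 and 0.98 in the controls and 0.909 and 0.746 in the Ash1L shRNA samples. Both Ash1L shRNA samples were below both controls, with a log2 difference of -0.28. The contrast was chosen with the beta values known. An exact permutation test gave p = 0.33, the lowest value that 2 against 2 samples can reach, so it cannot decide whether the groups differ.

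**Figure D4:**
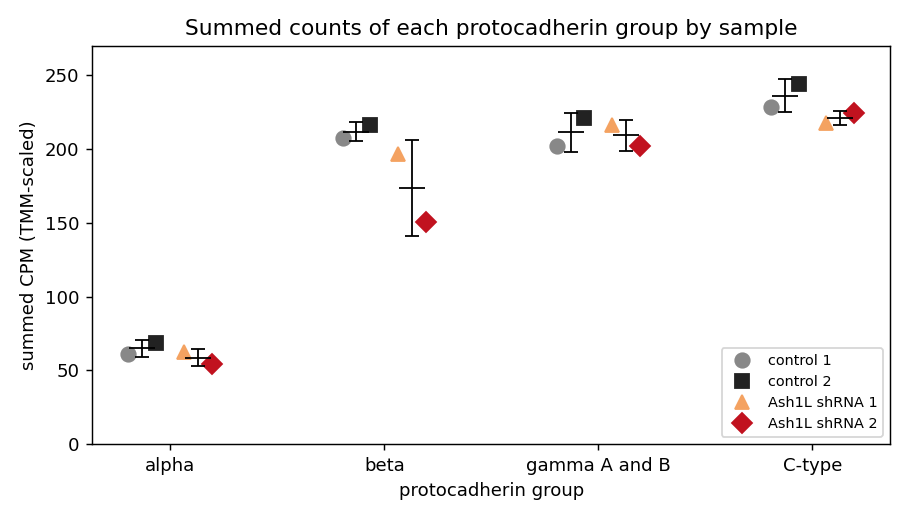
Summed CPM of each protocadherin group in each of the 4 samples, with horizontal bars for the mean and whiskers for the SD of the 2 samples of a group. The beta sum is 151 CPM in Ash1L shRNA sample 2, below the other 3 samples at 197 to 217 CPM, whereas gamma A and B sums lie between 202 and 221 CPM in all 4 samples.

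Markers of excitatory neurons, interneurons and astrocytes were mostly lower in the Ash1L shRNA samples, and their part in the beta values was not tested. Calls on the marker lists stand beside 8.28% of all genes DOWN and 8.61% UP. Of 8 markers of excitatory neurons, 7 were below 0 and 4 were DOWN, among them Camk2a (-0.42), Neurod6 (-0.45) and Tbr1 (-0.76), with a median of -0.40 and a summed level of 2482 to 2934 CPM in the controls and 1893 to 2273 CPM in the Ash1L shRNA samples. Of 10 interneuron markers, 7 were below 0 and 3 above, with a median of -0.47, and 4 were DOWN, among them Reln (-0.55), Sst (-0.62) and Pvalb (-0.90), with sums of 1047 to 1091 CPM and 844 to 937 CPM. The general GABAergic markers Gad1 (-0.18), Gad2 (0.28) and Slc32a1 (0.11), named after their values were seen, had no call. Of 12 pan-neuronal markers, 6 were below 0 and 6 above, with a median of -0.00, and 1 was DOWN (Syt1, -0.69). Their sums were 8843 to 9006 CPM in the controls and 7241 to 8153 CPM in the Ash1L shRNA samples. The sums of neuron, astrocyte, microglia and oligodendrocyte markers were all lowest in sample 2, as the beta sum was. The sum of endothelial markers was lowest in control 2. Sums follow the most abundant genes, and of the 12 pan-neuronal markers 8 were lower in sample 2 than in sample 1. The others, Map2, Stmn2, Nefl and Uchl1, were highest of all samples in sample 2.

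Markers of glia and endothelium were summed in the same way. Their calls stand beside the same 8.28% of all genes DOWN and 8.61% UP. Of 12 astrocyte markers, 9 were below 0 and 3 above, with a median of -0.65. Among the 12, 8 were DOWN, including Slc1a2 (-0.47), Slc1a3 (-0.94) and Aldoc (-1.18). The 3 above 0 were Aqp4 (0.11), Sox9 (0.06) and Gfap (0.00), and Aqp4 and Sox9 were highest of all samples in Ash1L shRNA sample 2. The astrocyte sums were 5781 to 6102 CPM in the controls and 3434 to 4646 CPM in the Ash1L shRNA samples. The summed level of 8 microglia markers was 830 to 849 CPM in the controls, 1100 CPM in Ash1L shRNA sample 1 and 437 CPM in sample 2, and none was called. Of 11 oligodendrocyte markers, 8 were below 0 and 3 above, and 1 was DOWN (Opalin, -0.86). Their sums were 2701 to 3059 CPM in the controls and 2568 to 2925 CPM in the Ash1L shRNA samples. Of 8 endothelial markers, 3 were below 0 and 5 above, and 1 was UP (Kdr, 0.63). Their sums were 273 to 306 CPM in the controls and 289 to 320 CPM in the Ash1L shRNA samples. No marker on these lists was at 0 in all samples.

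The nonclustered protocadherins, single genes elsewhere in the genome apart from Pcdh12 and Pcdh1 near the clusters, were tested in the same fit. Of 12 tested, 9 were below 0, 3 were DOWN and 1 was UP, with a median of -0.13, beside 8.28% of all genes DOWN and 8.61% UP. Pcdh9 had 349 and 360 CPM in the controls and 288 and 191 CPM after knockdown, a log2 fold change of -0.56. Pcdh10, needed for synapse elimination driven by Mef2 factors, had 404 and 419 CPM in the controls and 354 and 280 CPM after knockdown, a log2 fold change of -0.37. Pcdh19, mutated in a human epilepsy that affects mainly girls, had 89.4 and 86.4 CPM in the controls and 71.1 and 46.8 CPM after knockdown, a log2 fold change of -0.58. In these 3 genes, named as DOWN genes, both Ash1L shRNA samples were below both controls. This held for 7 of the 12, beside 26.8% of all genes tested. For Pcdh9, Pcdh10 and Pcdh19 the unadjusted P was 0.0291, 0.0381 and 0.0273 and the adjusted p 0.264, 0.278 and 0.262 in edgeR's quasi-likelihood test.

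Pcdh12, a protocadherin of endothelial cells that lies beyond the gamma cluster, was the UP gene. It had 21 and 53 counts in the controls and 81 and 91 in the Ash1L shRNA samples, or 1.49 and 1.51 CPM against 2.96 and 4.39 CPM. The log2 fold change was 1.28 ± 0.36 (SE), with an unadjusted P of 0.0109 and an adjusted p of 0.258 in edgeR's quasi-likelihood test.

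Other genes flanking or inside the locus were tested in the same fit. Of 15 tested, 4 were below 0 and 11 above, with a median of 0.05. They held 1 DOWN and 2 UP genes, beside 8.28% of all genes DOWN and 8.61% UP. Taf7, an intronless gene of a general transcription factor subunit that sits between the beta and gamma clusters, had 14.2 and 11.7 CPM in the controls and 17.96 and 25.8 CPM after knockdown, a log2 fold change of 0.77. Its values were above both controls in each Ash1L shRNA sample, and highest in sample 2, where the neighbouring beta genes were lowest. Arap3, beyond the gamma cluster, was UP with a log2 fold change of 0.46, and Zmat2, on the alpha side, was DOWN with -0.52.

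Genes that act on protocadherin promoters were mostly without a call. Of 10 CTCF and cohesin genes tested, 5 were below 0, with a median of 0.00. The cohesin loader subunit Mau2 was DOWN (-0.43) and the cohesin subunit Stag1 was UP (0.26), beside 8.28% of all genes DOWN and 8.61% UP. Of 19 genes of DNA methylation and heterochromatin, 14 were above 0 and 5 below, with a median of 0.11.

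Genes whose proteins act with protocadherins at the membrane or downstream of them held 6 DOWN genes and no UP gene among 29 tested, beside 8.28% of all genes DOWN and 8.61% UP, with 19 below 0 and a median of -0.07. Cyfip2, a subunit of the WAVE complex that binds protocadherin cytoplasmic tails, had 975 and 935 CPM in the controls and 793 and 653 CPM after knockdown, a log2 fold change of -0.40. Ptk2b, the kinase Pyk2 that protocadherins inhibit, had 360 and 384 CPM in the controls and 307 and 288 CPM after knockdown, a log2 fold change of -0.32. Abi2, another WAVE subunit, had 301 and 374 CPM in the controls and 267 and 185 CPM after knockdown, a log2 fold change of -0.58. In all 3, which were named as DOWN genes, both Ash1L shRNA samples were below both controls. This held for 12 of the 29 genes, beside 26.8% of all genes tested. Of 18 classical cadherins tested, 12 were below 0 with a median of -0.21, and Cdh11 was the only DOWN gene (-0.33).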

How the data were processed

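Strand-specific total RNA libraries (ribosomal RNA removed) of 4 PFC samples were sequenced on a HiSeq 2500. The deposited tables hold unnormalised read counts by gene symbol, which the authors made with STAR and featureCounts on mm10 (their notes also name DESeq2), while the labels' protocol names TopHat2. Strand, overlap and multimapping settings are not given in the sources used here. Samples were grouped by the labels' treatment. Counts were filtered with filterByExpr, scaled by TMM and fitted with edgeR 4.0.16 (quasi-likelihood, robust) in R 4.3.3 over all 16232 genes that passed, with Benjamini-Hochberg adjustment; the DOWN and UP thresholds follow the methods of the study. Per-sample log2 CPM used a prior count of 0.5. The scripts were tested on simulated data. Total counts ran from 14251190 to 35764874, and the common biological coefficient of variation was 0.173. Own and shared exon bases came from GENCODE vM21 and RefSeq.

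The members, gene lists and the rule for naming genes were chosen with earlier results of these data known. Named were the C-type genes, the 3 members with the highest mean CPM and those with the lowest and highest fold change in each of alpha, beta, gamma A and gamma B, members with an unadjusted P under 0.05, untested members, up to 3 DOWN and 3 UP genes of each other list, and Ash1l. Wapl and Diaph1 did not match a symbol and were not used, and 1 gene of another list is not reported here. Alternatives were other scalings, other filters, DESeq2 1.42.0, the likelihood ratio test, a replicate block, a fold limit of 1.5 and leaving out each sample.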

Additional observations from a re-analysis of the deposited data

How the results depend on the processing

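No member passed an adjusted p under 0.05 in any setting with all samples, and 4 of 56 did without Ash1L shRNA sample 1, where 2502 of all 16494 genes tested did. The count of DOWN members was 1 with TMM and with RLE size factors or no filter, and 0 with upper-quartile scaling, with library size only, with at least 10 counts in every sample, with DESeq2, with the likelihood ratio test and with a fold limit of 1.5. With a sample left out it ran from 0 to 12, the 12 without Ash1L shRNA sample 1 (Pcdha6, Pcdha9, Pcdha11, Pcdhac2, Pcdhb13 and Pcdhb16 to Pcdhb22), where 16.5% of all genes were DOWN. The lone Ash1L shRNA or control sample was then assumed to vary like the other group.

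With a sample left out, the beta median ran from -0.51 to -0.14, the summed beta difference from -0.50 to -0.10, the C-type median from -0.13 to -0.037 and the log2 fold change of Ash1l from -0.97 to -0.31, where Ash1l kept its call only without Ash1L shRNA sample 1. The beta median stayed below 0 in every setting tried, and the beta sum in every scaling and with each sample left out. Of the 25 named members tested, 4 changed sign in a setting with all samples, none over 0.03 in size, and 10 with a sample left out.

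Samples that share a replicate number did not deviate together (correlation -0.109), so the numbers were not used as pairs. With the replicate block the count of DOWN members was 0, the beta median -0.34 and the counts of all genes 1020 DOWN and 1052 UP, beside 1344 and 1397. With the numbers crossed, an alternative added after seeing the data, they were 1 DOWN member and 1736 DOWN and 1541 UP genes. In all, 1 gene passed an adjusted p under 0.05, beside 421 with DESeq2, 479 with the likelihood ratio test, 34 without the filter and 0 with the block, and 2502 and 36 without Ash1L shRNA sample 1 and sample 2.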
